A study of Mus musculus with 10 samples.

Results

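The Hox genes are the genes whose symbol is Hox, a cluster letter from a to d and a paralog number. All 39 such mouse genes had rows in the expression tables, out of 24711 genes in all. They were found by position on genome build mm10, and their values were summed over the transcripts of each gene. The 4 clusters contributed 11 members (Hoxa), 10 (Hoxb), 9 (Hoxc) and 9 (Hoxd).

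RNA was sequenced from cells of the prostate of C57BL/6 mice aged 8 to 12 weeks, separated by flow cytometry into 4 groups of 10 libraries. No genotype other than the strain and no treatment of the mice is named. All groups were depleted of cells positive for lineage markers (Lin-). Basal cells (CD24 low, CD49f high) gave 2 libraries. Luminal cells (CD24 high, CD49f low) were divided by the surface protein Sca-1 into luminal Sca-1- cells with 3 libraries and luminal Sca-1+ cells with 3 libraries. Stromal cells (CD24-, CD49f-) gave 2 libraries. The labels do not say how many mice stood behind a library or whether libraries came from separate mice, so each p-value measures only the spread between these libraries, which may be technical. A protocol given for all 4 groups also describes culture on collagen with the androgen DHT, leaving it unclear if the cells used here were ever in culture.

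Hox genes encode homeodomain transcription factors that set position along the body axis. Within a cluster, low paralog numbers are used towards the head and high numbers towards the tail, and genes of the same number in different clusters descend from a common ancestor. The highest numbers pattern the hindgut, limb ends and urogenital tract, and Hoxb13, Hoxd13 and Hoxa13 are known for their roles in growth and branching of the prostate.

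Promoters are shown for 4 members, Hoxd13, Hoxd11, Hoxa13 and Hoxa11. Each was called higher in luminal Sca-1+ and in stromal libraries than in luminal Sca-1- libraries (Hoxa11 only as deposited, before it was summed with its antisense RNA). The stromal call of Hoxa13 was lost in many settings, as given below. Hoxd10 had both calls too, and its promoter is not shown. Each line is the 250 bases upstream of the start site, 5′ to 3′ on the gene's strand, from RefSeq on GRCm38.p6, the assembly of mm10. Capitals mark matches on either strand to 5 motifs. These were TATAAA for the TATA box, GGGCGG for the GC box bound by Sp1, AGAACA for a single arm of an androgen receptor element, and CAATAAA and TCGTAAA for sites of the kind that posterior Hox proteins bind.
Hoxd13, chr2:74667975-74668224, plus strand: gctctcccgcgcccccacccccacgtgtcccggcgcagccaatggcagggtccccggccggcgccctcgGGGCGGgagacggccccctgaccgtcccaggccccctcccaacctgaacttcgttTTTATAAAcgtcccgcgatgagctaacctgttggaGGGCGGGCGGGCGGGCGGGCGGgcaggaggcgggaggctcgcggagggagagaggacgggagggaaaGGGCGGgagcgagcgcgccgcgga
Hoxd11, chr2:74679308-74679557, plus strand: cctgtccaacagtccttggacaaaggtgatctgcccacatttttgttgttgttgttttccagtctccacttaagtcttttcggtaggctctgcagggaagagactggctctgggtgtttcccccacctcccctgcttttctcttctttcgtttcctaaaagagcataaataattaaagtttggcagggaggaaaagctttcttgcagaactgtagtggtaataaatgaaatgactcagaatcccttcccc
Hoxa11, chr6:52245811-52246060, minus strand: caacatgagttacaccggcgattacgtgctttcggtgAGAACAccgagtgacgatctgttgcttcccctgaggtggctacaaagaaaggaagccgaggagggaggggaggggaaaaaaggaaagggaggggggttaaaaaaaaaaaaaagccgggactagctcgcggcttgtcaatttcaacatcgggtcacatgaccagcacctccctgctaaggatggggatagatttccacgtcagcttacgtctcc
Hoxa13, chr6:52260881-52261130, minus strand: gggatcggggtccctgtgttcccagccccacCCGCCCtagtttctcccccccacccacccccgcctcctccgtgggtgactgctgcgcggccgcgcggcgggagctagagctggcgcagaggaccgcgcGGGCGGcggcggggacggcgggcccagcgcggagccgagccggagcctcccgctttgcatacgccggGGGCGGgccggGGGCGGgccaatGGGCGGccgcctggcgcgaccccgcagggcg
The Hoxd13 window held 7 GGGCGG matches, most of them overlapping in a single run. It also held a TATAAA match on each strand, partly overlapping, which counts as 2. The Hoxa13 window held 5 GGGCGG matches and the Hoxa11 window 1 AGAACA match. None of the 5 motifs occurred in these letters of the Hoxd11 window. The table has another Hoxd11 start site, not printed here, whose window holds GGGCGG. GC content was 74.4% for Hoxd13, 80% for Hoxa13, 52% for Hoxa11 and 44.8% for Hoxd11, beside a median of 52.4% over 32851 promoters of the same length. Of those 32851 promoters, 32.7% held GGGCGG, 12.4% TATAAA, 16.1% AGAACA, 4.2% CAATAAA and 0.5% TCGTAAA. The RefSeq table matched 22 of the 39 Hox genes, with 24 promoters, of which 10 held GGGCGG and 4 held TATAAA. The windows of these 4 genes, whose levels as deposited moved in the same direction, shared none of the 5 motifs across all 4 as printed.

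Levels are in FPKM, the number of fragments per length of transcript (kilobases) and per depth of the library, a scale that allows genes of different length to be set side by side. Each library held 20 to 26.9 M (mega) fragments. Markers followed the gates in part. All 5 basal markers were called higher in basal than in luminal Sca-1- libraries, and all 10 fibroblast markers higher in stromal than in luminal Sca-1- libraries. Of 6 luminal markers, 4 were called lower in basal, 3 in luminal Sca-1+ and 6 in stromal than in luminal Sca-1- libraries. Krt8 and Krt18 were not called in basal libraries, with means of 920 and 1780 FPKM beside 1050 and 2200 FPKM in luminal Sca-1- libraries. Fibroblast RNA also moved with the luminal Sca-1+ gate. The summed level of the 10 fibroblast markers was 5460, 2810 and 394 FPKM in luminal Sca-1+ replicates 1, 2 and 3. It was 77.6 to 141 FPKM in luminal Sca-1-, 511 and 693 FPKM in basal, and 5880 and 7510 FPKM in stromal libraries. Dcn alone gave 655 and 459 FPKM of the sums of basal replicates 1 and 2. Each other fibroblast marker was higher in luminal Sca-1+ replicate 3 than in either basal library. No library lacked Col1a1. Seminal vesicle secretory genes summed to 18900, 1400 and 42600 FPKM in luminal Sca-1- replicates 1, 2 and 3, to 4020 to 7180 FPKM in luminal Sca-1+, and to 80.3 to 139 FPKM in basal and stromal libraries. Ptprc, the pan-leukocyte marker CD45, was at or below 0.338 FPKM in all 10 libraries. Other leukocyte markers were not all low: Cd68 reached 18.3 FPKM in luminal Sca-1+ replicate 2 and Lyz2 14.2 FPKM in luminal Sca-1- replicate 1. The 7 leukocyte markers summed to 4.68 to 24 FPKM per library. In bulk samples such as these, fewer cells of a type and less RNA per cell cannot be told apart.

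The prostate Hox transcripts were those of the posterior end of the clusters. Genes of paralog numbers 9 to 13, which are 16 of the 39 members, made up 82.8% to 97.7% of the summed Hox FPKM of each library. A mean of 5 FPKM or more in at least 1 group was reached by 7 members, namely Hoxa10, Hoxa11, Hoxa13, Hoxb9, Hoxb13, Hoxd11 and Hoxd13. Another 8 members reached 1 to 5 FPKM, namely Hoxa7, Hoxa9, Hoxb2, Hoxb6, Hoxb7, Hoxd8, Hoxd10 and Hoxd12. Of paralogs 1 to 3, Hoxb2 was the member to reach 1 FPKM as a group mean. The remaining 24 members stayed under 1 FPKM in every group mean.

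The clusters were not used alike. The Hoxc cluster was nearly silent: none of its 9 members passed the filter of 1 FPKM in at least 2 libraries, its highest value was 0.151 FPKM (Hoxc10), no library held more than about 6 fragments of any member, and Hoxc13 was listed at 0 throughout. The filter was passed by 6 of 11 Hoxa, 5 of 10 Hoxb and 6 of 9 Hoxd members. The other members under 1 FPKM in every group mean included Hoxa2 to Hoxa6, Hoxb1, Hoxb3, Hoxb4, Hoxb5, Hoxb8, Hoxd1, Hoxd3, Hoxd4 and Hoxd9. The summed Hoxd level was 4.19 to 9.21 FPKM in luminal Sca-1- libraries, below the 16.2 and 24.9 FPKM of basal, 25.5 to 30.6 FPKM of luminal Sca-1+ and 29 and 33.5 FPKM of stromal libraries. The summed Hoxb level ran the other way, at 139 to 294 FPKM in luminal Sca-1- against 9.89 to 56.3 FPKM in the other libraries, and Hoxb13 carried that difference. Without Hoxb13, the Hoxb sum was 6.22 to 17.7 FPKM in luminal Sca-1-, 8.33 to 11 FPKM in luminal Sca-1+, 6.13 and 6.34 FPKM in stromal and 1.14 and 1.17 FPKM in basal libraries, so that the luminal groups overlapped and basal libraries lay below all others.

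**Figure D1:**
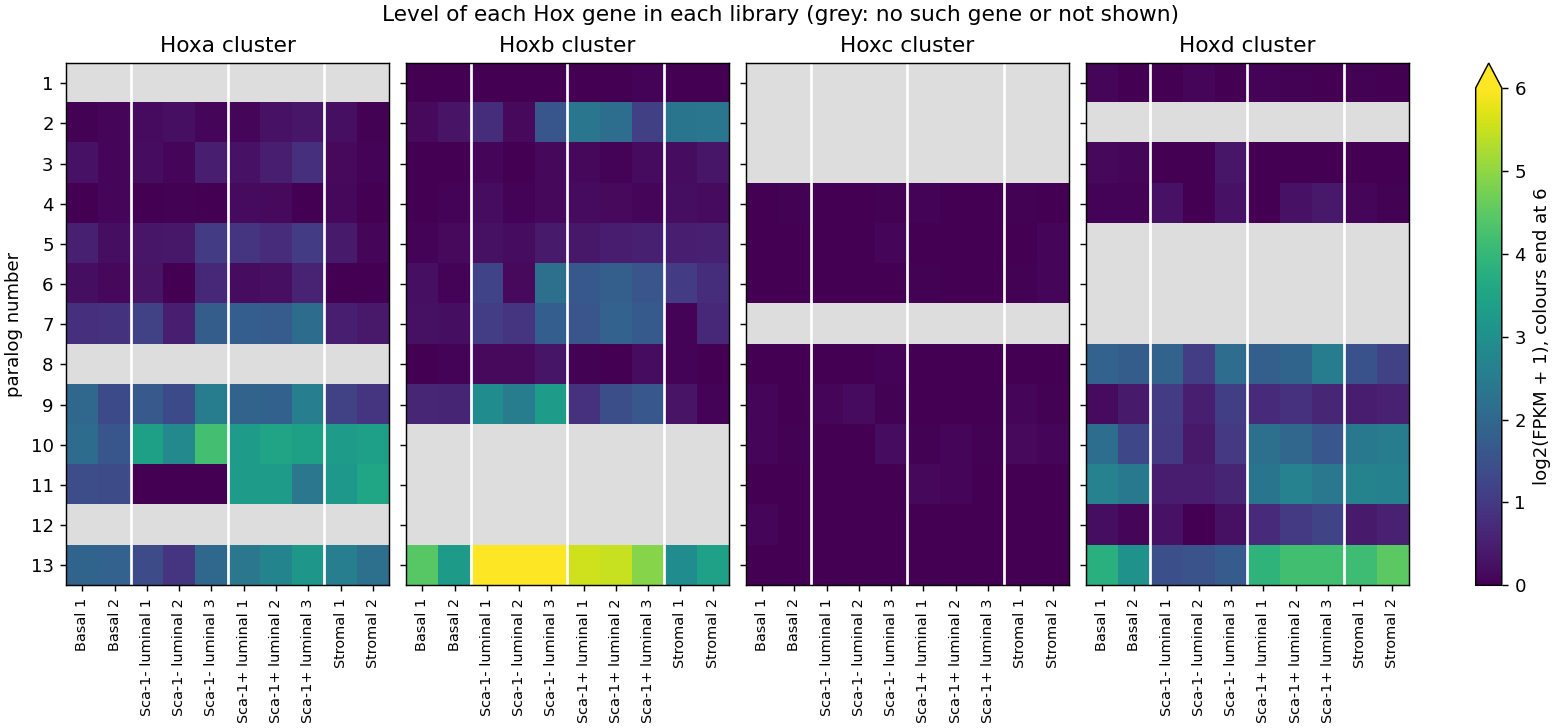
Level of each Hox gene as log2(FPKM + 1), with paralog number down the side, 1 column per library and 1 panel per cluster; grey cells are numbers that a cluster lacks or that are not shown, and white lines separate the groups. The Hoxc panel stays dark in all 10 libraries, and the bright cells lie at paralog numbers 9 to 13, with Hoxb13 past the end of the colour scale in the luminal Sca-1- libraries.

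Hoxb13 (chromosome 11, 96194361 to 96196599) had the highest level of all Hox genes in every luminal and basal library. It stood at 207, 133 and 277 FPKM in the 3 luminal Sca-1- libraries and at 46.7, 44 and 28.9 FPKM in the 3 luminal Sca-1+ libraries. Basal libraries held 20.6 and 8.72 FPKM and stromal libraries 6.54 and 9.78 FPKM. The luminal groups did not overlap with each other or with any other group, while the basal and stromal ranges overlapped. These values rested on about 179 to 7214 fragments per library. Hoxb13 alone gave 82.9% to 86.9% of the summed Hox FPKM in luminal Sca-1- libraries, 28.7% to 42.1% in luminal Sca-1+, 24.7% and 34.6% in basal libraries, and 9.86% and 13% in stromal ones. Without it, the summed level of the other 38 members was 20.1 to 57.2 FPKM in luminal Sca-1- and 64.1 to 73.2 FPKM in luminal Sca-1+ libraries, so that the order of the luminal groups was the opposite. These sums hold Hoxa11 as deposited, at 0 in luminal Sca-1- and 8.9, 9.04 and 4.18 FPKM in luminal Sca-1+ libraries. The ranges lie apart only with it included.

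Hoxd13 (chromosome 2, 74668310 to 74671599), a paralog of Hoxb13 at the end of the Hoxd cluster, was lowest in the luminal gate in which Hoxb13 was highest. It stood at 1.77, 1.88 and 2.38 FPKM in luminal Sca-1- libraries and at 13.9, 17.3 and 17.2 FPKM in luminal Sca-1+ libraries. Basal libraries held 12.9 and 7.47 FPKM, and stromal libraries 16.5 and 21.3 FPKM. All luminal Sca-1- libraries lay below all others, basal libraries came next, and the ranges of luminal Sca-1+ and stromal libraries overlapped. The ratio of Hoxb13 to Hoxd13 was 117, 71 and 116 in luminal Sca-1- libraries, 3.35, 2.54 and 1.68 in luminal Sca-1+, 1.6 and 1.17 in basal libraries, and 0.395 and 0.459 in stromal ones. Stromal libraries were thus the ones in which Hoxd13 exceeded Hoxb13.

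The other members at 5 FPKM or more differed in which groups were high. Hoxb9 (chromosome 11, 96271330 to 96276593), next to Hoxb13 among the coding genes of its cluster, stood at 6.55, 4.83 and 8.78 FPKM in luminal Sca-1- libraries. Luminal Sca-1+ libraries held 0.813, 1.72 and 2.1 FPKM of it, basal libraries 0.57 and 0.537 FPKM, and stromal libraries 0.236 and 0.043 FPKM. No pair of groups overlapped for Hoxb9. Hoxd11 (chromosome 2, 74679558 to 74687016), which acts in kidney and forelimb development together with Hoxa11, stood at 0.376, 0.374 and 0.544 FPKM in luminal Sca-1- libraries, 4.06, 5.27 and 4.26 FPKM in luminal Sca-1+, 5.37 and 4.37 FPKM in basal, and 5.42 and 5.21 FPKM in stromal libraries. Its 3 higher groups overlapped and all lay above the luminal Sca-1- libraries. Hoxa13, another group 13 paralog, needed for the hindgut and genital tubercle, stood at 1.65, 0.863 and 3.04 FPKM in luminal Sca-1-, 4.22, 5.58 and 8.07 FPKM in luminal Sca-1+, 2.81 and 2.72 FPKM in basal, and 4.96 and 3.68 FPKM in stromal libraries. Its basal values lay within the luminal Sca-1- range. Hoxa10 (chromosome 6, 52231197 to 52240854), needed for the uterus and for testis descent, was lowest in basal libraries, at 3.33 and 2.05 FPKM. Its levels were 9.68, 6.1 and 17.6 FPKM in luminal Sca-1-, 8.92, 10.3 and 9.6 FPKM in luminal Sca-1+, and 8.79 and 9.54 FPKM in stromal libraries. The last 3 groups overlapped.

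**Figure D2:**
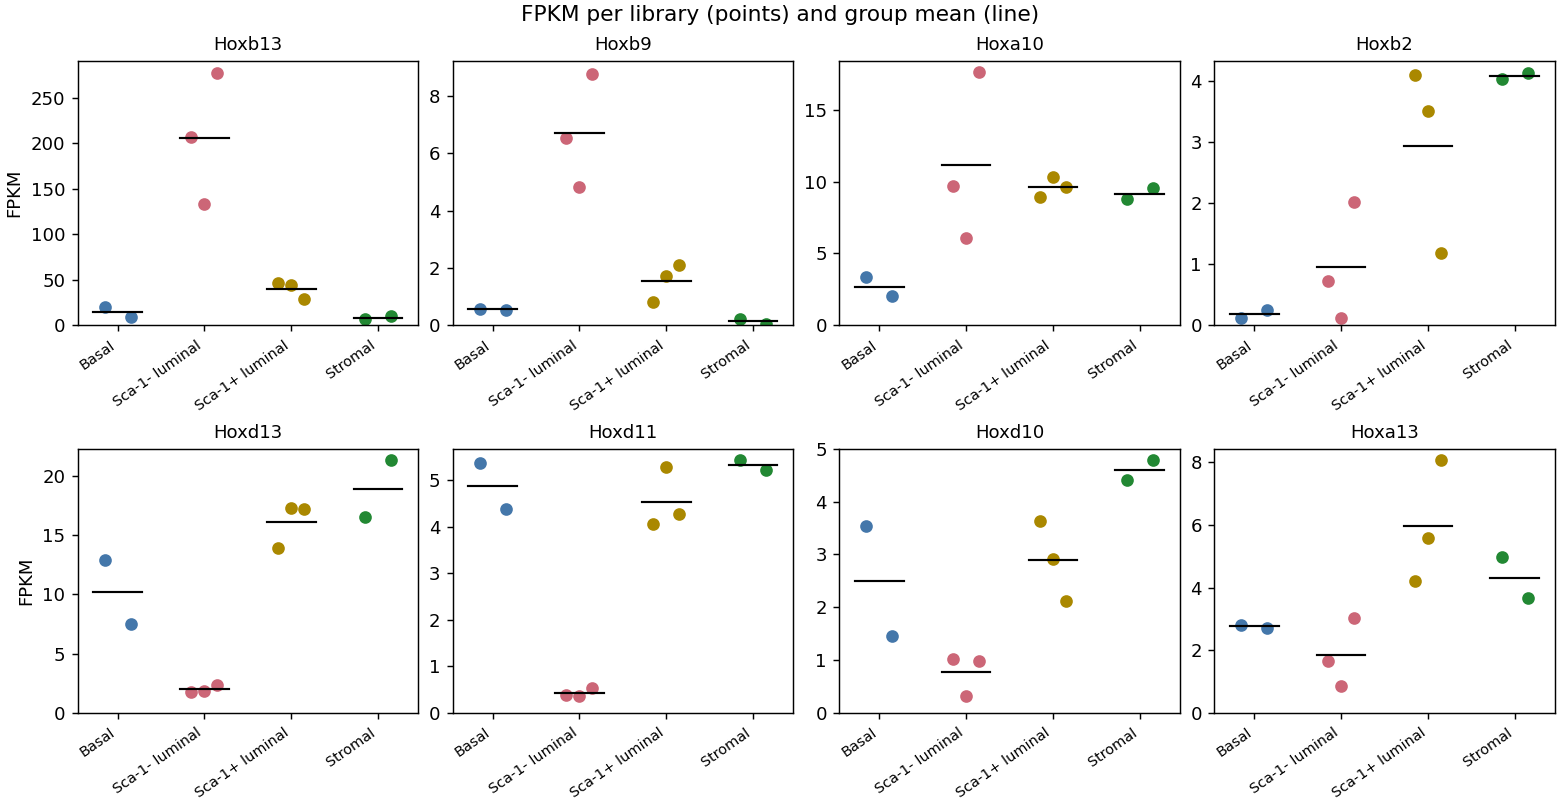
FPKM of 8 members in each library (points, with 1 panel per gene and its own axis from 0) and the mean of each group (black line). Hoxb13 and Hoxb9 are highest in the luminal Sca-1- libraries, in which Hoxd13 and Hoxd11 are lowest, at 1.77 to 2.38 and 0.374 to 0.544 FPKM.

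Hoxa11 (chromosome 6, 52242105 to 52245810) cannot be read apart from its antisense neighbour. Hoxa11 was listed at 0 in all 3 luminal Sca-1- libraries, at 1.68 and 1.6 FPKM in basal, 8.9, 9.04 and 4.18 FPKM in luminal Sca-1+, and 8.2 and 10.7 FPKM in stromal libraries. Hoxa11os, a noncoding RNA transcribed from the opposite strand, overlaps the Hoxa11 transcript by 729 nucleotides. It stood at 40.7, 51.6 and 70 FPKM in luminal Sca-1-, 14.6, 24 and 13.2 FPKM in luminal Sca-1+, 4.69 and 5.16 FPKM in basal, and 6.47 and 8.61 FPKM in stromal libraries. The libraries are not stated to keep the strand, so fragments from the shared stretch cannot be told apart. Summed, the pair stood at 40.7 to 70 FPKM in luminal Sca-1-, 17.3 to 33.1 FPKM in luminal Sca-1+, 6.37 and 6.76 FPKM in basal, and 14.7 and 19.3 FPKM in stromal libraries. The sum was highest where Hoxa11 by itself was listed at 0.

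**Figure D3:**
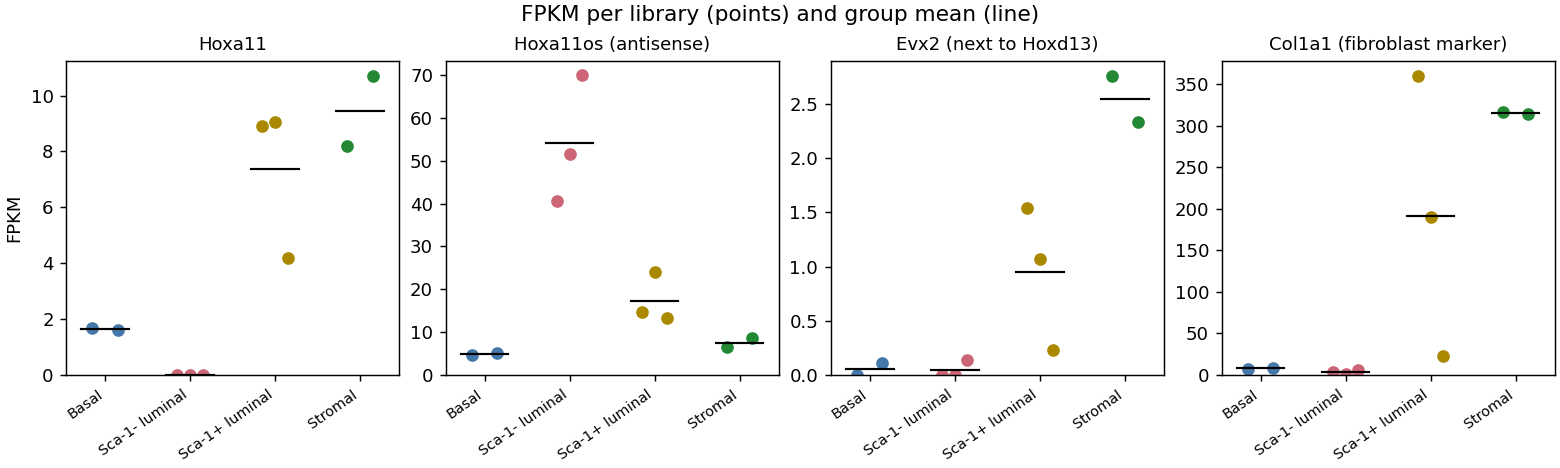
FPKM per library (points) and group mean (black line) of Hoxa11, its antisense RNA Hoxa11os, Evx2 beside Hoxd13 and the fibroblast marker Col1a1, each on its own axis from 0. Hoxa11 is listed at 0 in the 3 libraries with the most Hoxa11os, 40.7 to 70 FPKM, and Col1a1 ranges from 22.4 to 360 FPKM among the luminal Sca-1+ libraries.

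Among the members at 1 to 5 FPKM, Hoxd10 ranged from 0.33 to 1.02 FPKM in luminal Sca-1-, 1.45 to 3.53 FPKM in basal, 2.11 to 3.63 FPKM in luminal Sca-1+ and 4.4 to 4.78 FPKM in stromal libraries. Hoxd12 was at or below 0.223 FPKM in luminal Sca-1- and basal libraries, at 0.349 and 0.475 FPKM in stromal and at 0.674 to 1.34 FPKM in luminal Sca-1+ libraries. Hoxd10 and Hoxd12, which lie on either side of Hoxd11, were thus low in the same luminal gate as Hoxd11 and Hoxd13. Hoxb2, a hindbrain gene by its best known role, was at 4.03 and 4.13 FPKM in stromal, 1.19 to 4.11 FPKM in luminal Sca-1+, 0.117 to 2.02 FPKM in luminal Sca-1- and at most 0.249 FPKM in basal libraries. Hoxb7 stood at 0.859 to 2.49 FPKM in luminal Sca-1- and 2.01 to 2.72 FPKM in luminal Sca-1+ libraries, above the 0.0382 to 0.59 FPKM of basal and stromal libraries. Hoxb6 ranged from 1.99 to 2.51 FPKM in luminal Sca-1+ and from 0.112 to 3.63 FPKM in luminal Sca-1- libraries. Both lie in the middle of the Hoxb cluster. Hoxa7 was at 0.329 and 0.408 FPKM in stromal and 2.34 to 3.33 FPKM in luminal Sca-1+ libraries. Hoxa9 and Hoxd8 ranged from 0.89 to 4.88 FPKM and from 1.14 to 4.79 FPKM over all libraries. Hoxa7, Hoxa9, Hoxb6 and Hoxd8 were not called in any of the 4 comparisons below.

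The 3 luminal Sca-1- libraries differed from each other in the same order for many members. Replicate 2 was lowest and replicate 3 highest for Hoxb13, Hoxb9, Hoxa10, Hoxa13, Hoxa7, Hoxa9, Hoxb2, Hoxb6, Hoxb7 and Hoxd8. The summed seminal vesicle genes had that order too, and the part of seminal vesicle RNA in these Hox levels was not tested. Hoxd13 and Hoxd11 spread less, with SDs of 0.328 and 0.0976 FPKM around means of 2.01 and 0.431 FPKM (n = 3).

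**Figure D4:**
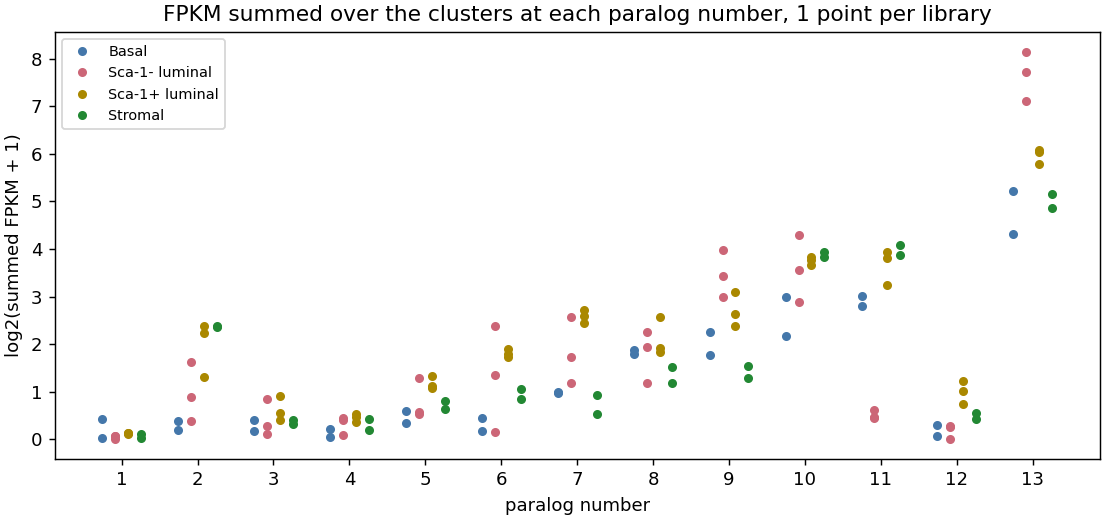
FPKM summed over the clusters at each paralog number, as log2(summed FPKM + 1), with 1 point per library coloured by group. Paralog 11, with Hoxa11 as deposited, lies at 0.374 to 0.544 FPKM in luminal Sca-1- libraries against 5.97 to 15.9 FPKM in all others, while paralog 13 is highest in the luminal Sca-1- libraries.

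Of the 39 members, 17 passed the filter and entered the tests, and 22 did not. A limma model on log2(FPKM + 1) was fitted to all 12530 genes that passed it, with Benjamini-Hochberg adjustment over all of them. A gene is called at an adjusted p under 0.05, and log2 changes are on the log2(FPKM + 1) scale, which understates the changes of low genes. A member that passed through its high group alone had to differ from its low group, so the counts below describe the 17 and not all Hox genes. The luminal Sca-1+, basal and stromal groups were each compared with the same 3 luminal Sca-1- libraries, and the fourth comparison used the same stromal and basal libraries again.

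Hoxd10, Hoxd11, Hoxd13 and Hoxa13 were higher, and Hoxb13 and Hoxb9 lower, in luminal Sca-1+ than in luminal Sca-1- libraries. Of the 17 members, 6 were higher and 2 lower, with 9 not called, where 35.2% of all genes tested were called, 21.8% higher and 13.4% lower. The higher members were Hoxd10, Hoxd11, Hoxd12, Hoxd13, Hoxa11 (as deposited) and Hoxa13, and the lower ones Hoxb13 and Hoxb9. Hoxd12 passed the filter through luminal Sca-1+ libraries alone, so its call was favoured in advance. Hoxd13 rose by 2.51 on the log2 scale (SE 0.239, limma adjusted p = 0.000261). Hoxb13 fell by 2.31 (SE 0.37, limma adjusted p = 0.00223). Their changes were thus of opposite sign, and of similar size on this scale, which understates the change of Hoxd13, low in luminal Sca-1- libraries. Hoxd11 rose by 1.95 (SE 0.197, limma adjusted p = 0.00035) and Hoxa13 by 1.32 (SE 0.319, limma adjusted p = 0.0127). Hoxb9 fell by 1.61 (SE 0.27, limma adjusted p = 0.00273), whereas Hoxa10 was not called, at -0.08 (SE 0.326, limma adjusted p = 0.864). Nor were the posterior members Hoxa9, at 0.26 (limma adjusted p = 0.571), and Hoxd9, at -0.15 (limma adjusted p = 0.596). Hoxa11 as deposited was called higher (limma adjusted p = 0.000229), and no fold is given against libraries listed at 0. The 17 members had a median log2 change of 0.49, beside 0.19 for all genes tested.

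Luminal Sca-1+ replicate 3 had the least fibroblast RNA of its gate. That replicate was also fitted as the sole library of the gate, whose spread is then assumed to be like that of the other groups. Hoxd10 was not called in that fit, and Hoxd12 did not pass the filter and was not tested. In that fit the log2 change was 2.6 for Hoxd13 (limma adjusted p = 0.00292), 1.88 for Hoxd11 (limma adjusted p = 0.00362), 1.74 for Hoxa13 (limma adjusted p = 0.0277), -2.73 for Hoxb13 (limma adjusted p = 0.011) and -1.29 for Hoxb9 (limma adjusted p = 0.034), and Hoxa11 as deposited was called (limma adjusted p = 0.0013). In luminal Sca-1+ libraries, Hoxd10, Hoxb2 and Hoxb13 had the order of the summed fibroblast markers, highest in replicate 1 and lowest in replicate 3. Hoxa13, Hoxd12, Hoxb9 and Hoxd8 had the opposite order. The part of fibroblast RNA in these genes was not tested. Set beside the fit with all 3 libraries, the differences of Hoxd13, Hoxa13 and Hoxb13 were larger and those of Hoxd11 and Hoxb9 smaller. Without luminal Sca-1- replicate 3, the higher members numbered 9, with Hoxa7, Hoxb2 and Hoxb6 added. Without luminal Sca-1+ replicate 2 they numbered 4, with Hoxd10 not called and Hoxd12 not tested, as it did not pass the filter. Without luminal Sca-1+ replicate 3, Hoxb2 was called and Hoxd12 was again not tested. Calls over all genes were 62% higher here, 40.4% under quantile normalization and 46.3% under median-of-ratios scaling. Hoxd12 lost its call under both scalings, and the other 7 called members kept theirs.

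Basal libraries held more of 3 posterior Hoxd members than luminal Sca-1- libraries, and less of 3 Hoxb members and of Hoxa10. Of the 17 members, 4 were higher and 4 lower, with 9 not called, where 46.3% of all genes tested were called, 20.2% higher and 26% lower. The count of members called in either direction lies near that share. Hoxd10, Hoxd11, Hoxd13 and Hoxa11 were higher, and Hoxb13, Hoxb9, Hoxb7 and Hoxa10 were lower. Hoxd11 rose by 2.03 (SE 0.22, limma adjusted p = 0.00011) and Hoxd13 by 1.85 (SE 0.267, limma adjusted p = 0.000513). Hoxb13 fell by 3.77 (SE 0.414, limma adjusted p = 0.00012) and Hoxb9 by 2.28 (SE 0.302, limma adjusted p = 0.000323). For these 4 genes neither basal library overlapped with the luminal Sca-1- range. Hoxa10 fell by 1.63 (SE 0.365, limma adjusted p = 0.00538). Hoxa13 was not called, at 0.47 (SE 0.356, limma adjusted p = 0.309), and Hoxa11, listed at 0 in luminal Sca-1- libraries, was called (limma adjusted p = 0.00501). The median log2 change was -0.22 for the 17 members and -0.05 for all genes tested. Without basal replicate 2, the lower members numbered 2, as Hoxa10 (-1.37, limma adjusted p = 0.0569) and Hoxb7 were no longer called, and without basal replicate 1 they numbered 3, without Hoxb7. Without luminal Sca-1- replicate 2 they numbered 6, with Hoxb6 and Hoxd9 added, and Hoxd10 lost its call without basal replicate 1, any luminal Sca-1- library, either stromal library or luminal Sca-1+ replicate 2.

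Stromal libraries held less Hoxb13 than luminal Sca-1- libraries, by -4.46 on the log2 scale (SE 0.414, limma adjusted p = 6.39e-05). Of the 17 members, 6 were higher (Hoxd10, Hoxd11, Hoxd13, Hoxa11, Hoxa13 and Hoxb2), 3 were lower (Hoxb13, Hoxb9 and Hoxb7) and 8 were not called. Over all genes tested 52.6% were called, 25.2% higher and 27.4% lower, and the count of members called in either direction lies near that share. Hoxd13 rose by 2.72 (SE 0.267, limma adjusted p = 8.19e-05) and Hoxd11 by 2.14 (SE 0.22, limma adjusted p = 9.67e-05). Hoxb9 fell by 2.73 (SE 0.302, limma adjusted p = 0.000142). The size for low genes depends on the pseudocount: at 0.1 in place of 1 the change was -4.92 for Hoxb9, 3.36 for Hoxd11 and -4.6 for Hoxb13. Within the Hoxb cluster, Hoxb2 at the anterior end was therefore higher in stromal libraries and Hoxb7, Hoxb9 and Hoxb13 were lower. Hoxa13 was called at 0.96 (SE 0.356, limma adjusted p = 0.0451) and Hoxa11 at a limma adjusted p of 6.08e-05, whereas Hoxa10 was not called, at -0.14 (SE 0.365, limma adjusted p = 0.768). The median log2 change was -0.28 for the 17 members and -0.06 for all genes tested. The Hoxa13 call was lost without either basal or either stromal library, without luminal Sca-1- replicate 1 or 2, or without luminal Sca-1+ replicate 2, at limma adjusted p from 0.064 to 0.224. It was also lost with only the 2 groups compared in the fit, with the top row of each gene in place of the sum, and with no filter. In all, 11 of 21 settings kept it. Hoxb7 lost its call without stromal replicate 1 or luminal Sca-1- replicate 3, Hoxb2 without either stromal library or luminal Sca-1- replicate 2, and Hoxa7 and Hoxd9 were also lower without luminal Sca-1- replicate 2, which made 5.

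Stromal and basal libraries, set against each other, differed in fewer members, and also in fewer of all genes tested. Here 3 of the 17 were higher in stromal libraries (Hoxa10, Hoxa11 and Hoxb2), 0 were lower and 14 were not called. Over all genes tested 22.6% were called, 13.5% higher and 9.12% lower, and the count of members lies near that share. At an unadjusted limma p under 0.05 the counts were 4 higher and 0 lower. Hoxa11 rose by 1.97 (SE 0.339, limma adjusted p = 0.00376) and Hoxa10 by 1.48 (SE 0.399, limma adjusted p = 0.0254). Hoxb2 rose by 2.1 (SE 0.492, limma adjusted p = 0.0141). Hoxd13, Hoxb13 and Hoxd11 were not called here: Hoxd13 differed by 0.87 (SE 0.292, limma adjusted p = 0.0597), Hoxb13 by -0.69 (SE 0.453, limma adjusted p = 0.331) and Hoxd11 by 0.11 (SE 0.241, limma adjusted p = 0.812). The median log2 change was 0.19 for the 17 members and 0.02 for all genes tested. Without any of the 4 libraries compared, Hoxa10 (limma adjusted p from 0.0633 to 0.167) and Hoxb2 lost their calls, which left Hoxa11 alone.

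**Figure D5:**
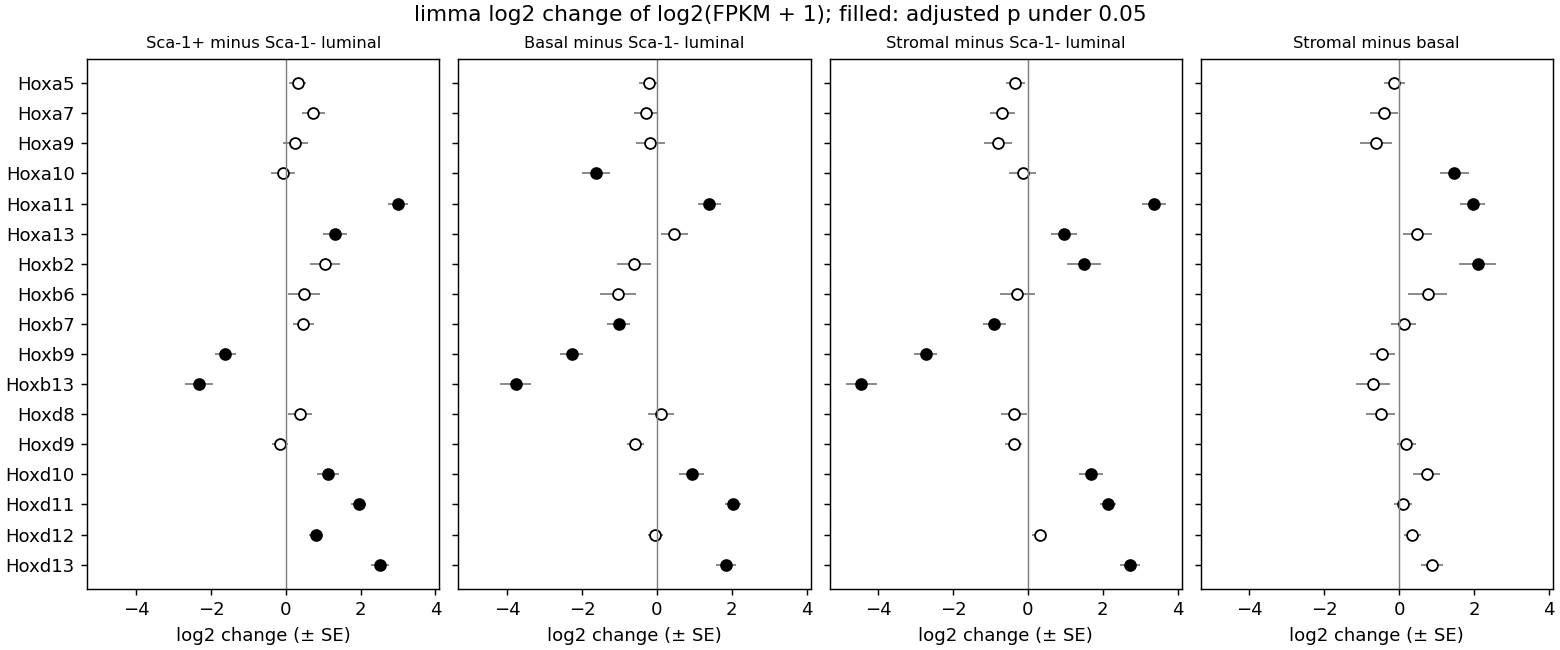
limma log2 change on the log2(FPKM + 1) scale (points, with SE bars) of the 17 members tested, in 4 comparisons, with filled points at an adjusted p under 0.05 and positive values for higher in the group named first. Hoxd13 lies at 2.51, 1.85 and 2.72 and Hoxb13 at -2.31, -3.77 and -4.46 in the 3 comparisons with luminal Sca-1- libraries. Hoxa11 is drawn as deposited and lies at or above 1.4 there. Its sum with Hoxa11os, below 0 in those comparisons, is not drawn.

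When the Hoxa11 and Hoxa11os rows were summed into a single feature, the sign turned in all 3 comparisons with luminal Sca-1- libraries. The log2 change of the sum was -1.11 for luminal Sca-1+ (limma adjusted p = 0.0145), -2.83 for basal (limma adjusted p = 0.000122) and -1.59 for stromal libraries (limma adjusted p = 0.0024). Hoxa11os alone fell by 1.6, 3.18 and 2.67 in these comparisons. The direction given for Hoxa11 is that of the deposited division of fragments between the pair. The sum also counts Hoxa11os fragments from outside the shared stretch, so its sign cannot show how the shared fragments were divided. The summed feature was chosen after the values were seen.

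The genes that border the clusters were also tested. Evx2, a homeobox gene next to Hoxd13, stood at 1.54, 1.07 and 0.231 FPKM in luminal Sca-1+ libraries, 2.76 and 2.34 FPKM in stromal libraries and at most 0.14 FPKM in the others. Evx1, next to Hoxa13, stood at 1.62, 1.79 and 1.59 FPKM in luminal Sca-1+ libraries, 1.61 and 3.85 FPKM in stromal libraries and at most 0.166 FPKM in the others. Evx1 and Evx2 passed the filter through luminal Sca-1+ and stromal libraries alone, so calls in favour of these groups were favoured in advance. Both were called higher in luminal Sca-1+ than in luminal Sca-1- libraries, by 0.84 for Evx2 (limma adjusted p = 0.0327) and 1.35 for Evx1 (limma adjusted p = 0.00301). They were also called higher in stromal than in either luminal Sca-1- or basal libraries. Basal libraries, in contrast, were high for Hoxd13 but not for Evx2, which was not called against luminal Sca-1- libraries (0.01, limma adjusted p = 0.982). Across the luminal Sca-1+ libraries Evx2 had the order of the summed fibroblast markers, and the part of fibroblast RNA in it was not tested. Of 12 noncoding RNAs of the clusters on the list, 9 had rows and 2 were tested. Hoxa11os is described above, and Hoxd3os1, antisense within the Hoxd cluster, was lower in basal and in stromal than in luminal Sca-1- libraries. Hotair, of the Hoxc cluster, was at or below 0.0625 FPKM in every library. None of the 3 caudal genes Cdx1, Cdx2 and Cdx4, known as activators of central Hox genes in the embryo, passed the filter.

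Of the TALE homeodomain cofactors, which bind DNA together with Hox proteins, Meis2 and Pknox1 were called higher in luminal Sca-1+, in basal and in stromal libraries than in luminal Sca-1- libraries. Pknox1 rose by 0.99 (SE 0.26, limma adjusted p = 0.0178), 1.78 (SE 0.291, limma adjusted p = 0.000992) and 1.26 (SE 0.291, limma adjusted p = 0.0054) in that order. In stromal against basal libraries, Meis2 and Pknox2 were higher, by 1.68 (SE 0.265, limma adjusted p = 0.00271) and 2.46 (SE 0.631, limma adjusted p = 0.0208). Meis2 stood at 0.331, 0.312 and 0.0881 FPKM in luminal Sca-1-, 8.12, 11.9 and 8.28 FPKM in luminal Sca-1+, 2.4 and 2.73 FPKM in basal, and 10.2 and 10.6 FPKM in stromal libraries. Its luminal Sca-1- values lay below all others, the position that Hoxd13 and Hoxd11 also had. Meis2 rose by 3.05 in luminal Sca-1+ libraries (SE 0.217, limma adjusted p = 7.18e-05) and by 3.2 in stromal libraries (SE 0.242, limma adjusted p = 2.9e-05), both against luminal Sca-1- libraries.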

How the data were processed

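The values are FPKM per transcript, computed by the authors and deposited in 1 file per library. The submitters' processing notes name bcl2fastq 1.8.3, TopHat and Cufflinks (versions of the last 2 not given in the sources used here) and build mm10. Per the file headers, the deposited files also give coverage, a mean depth per transcript, which entered no test. Per the labels' protocols, cDNA was primed with both random and oligo(dT) primers; strand is not mentioned. The files carry no gene names: 54489 of 63241 rows (86.2%) were named by position from GENCODE M21 and RefSeq GRCm38.p6, rows under 300 nucleotides (8006) and 7 genes with a failed estimate were left out, and FPKM was summed per gene. The 39 Hox genes had 51 rows, and the single rows of Hoxa3 and Hoxd3 touch coding exons of more than 1 Hox gene. Depth was estimated from the steps of low values, of which 89.6% to 95.1% lay within 0.05 of a whole fragment.

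limma 3.58.1 (R 4.3.3; eBayes with trend, 6 residual degrees of freedom) was fitted on log2(FPKM + 1), a pseudocount of 1, to all 10 libraries with 1 mean per group; a gene entered the test when 2 or more libraries reached 1 FPKM. The script was tested on simulated data. Figures were drawn in Python 3.11.15 with matplotlib 3.10.9. Every Hox gene is a member; those with a group mean of 5 FPKM or more are given in every library, those at 1 to 5 FPKM by ranges, and the rest by name. The members and the lists of other genes and markers were chosen with earlier results of these data known. Replicates carry no numbers in the labels and were numbered in the order listed. Results of 1 Hox gene and 1 cofactor gene are not reported here, and the counts of the cofactor list are left out with them.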

Additional observations from a re-analysis of the deposited data

How the results depend on the processing

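Counts of called Hox genes kept within 1.5 times in 161 recomputed values and moved further in 7. Those were 5 members higher in stromal against basal libraries with no filter on low values (Hoxb3 and Hoxb5 added), and counts with 1 library left out: 1 to 3 higher in stromal against basal, 2 to 6 lower in basal and 2 to 5 lower in stromal against luminal Sca-1- libraries. With 1 library left out, the other counts were 4 to 9 higher and 2 to 2 lower for luminal Sca-1+, 3 to 4 higher for basal and 4 to 6 higher for stromal, each against luminal Sca-1-, and 0 to 0 lower for stromal against basal. Of the log2 changes of the named members, 565 kept direction and call, 15 lost the call, and 7 turned sign. These were the 3 of Hoxa11 summed with Hoxa11os (-1.11, -2.83 and -1.59), Hoxa10 without luminal Sca-1- replicate 3 (0.28 in luminal Sca-1+ and 0.22 in stromal against luminal Sca-1- libraries, where leaving out 1 library gave -0.41 to 0.28 and -0.47 to 0.22), and Hoxd11 in stromal against basal libraries (-0.03 under quantile normalization, and -0.01 to 0.23 with 1 library left out, the lowest without basal replicate 2), of which only the first 3 had been called. The cause was not tested. Quantile normalization moved the median of all genes from 0.19 to -0.07 in the comparison of the luminal gates and from 0.02 to -0.1 in stromal against basal libraries. No paired analysis was possible because the labels carry no replicate numbers. Hoxc members rest on at most about 6 fragments per library and did not pass the filter. With no filter, Hoxc6 and Hoxb3 were called higher in stromal than in luminal Sca-1- libraries and Hoxa13 was not, which made 7.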

Other observations

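Between Hoxb13 and Hoxb9 lie further transcripts, 2 of which were picked out after their values were seen and are given without a test. Gm53 (chromosome 11, 96251660 to 96264484), whose last base lies 6846 nucleotides before Hoxb9, stood at 11.4, 13.9 and 20.1 FPKM in luminal Sca-1-, 2.52, 2.34 and 2.76 FPKM in luminal Sca-1+, 1.42 and 1.75 FPKM in basal, and 0.124 and 0.338 FPKM in stromal libraries. Gm11538 (chromosome 11, 96203454 to 96205480), which starts 6855 nucleotides past the end of Hoxb13, stood at 5.43, 4.76 and 17.6 FPKM in luminal Sca-1-, 3.52, 3.41 and 4 FPKM in luminal Sca-1+, 0.532 and 0.331 FPKM in basal, and 0.164 and 0.408 FPKM in stromal libraries. Both had their highest values in the luminal Sca-1- libraries.

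Polycomb and Trithorax proteins are known for keeping Hox genes off and on. Of 23 listed genes 22 were tested. In luminal Sca-1+ against luminal Sca-1- libraries 3 were higher and 0 lower (limma, adjusted p under 0.05), where 35.2% of all genes tested were called. At an unadjusted limma p under 0.05, the counts were 8 higher and 2 lower. Against luminal Sca-1- libraries, 7 were higher and 3 lower in basal libraries, where 46.3% of all genes were called, and 6 higher and 6 lower in stromal libraries, where 52.6% were. The basal and stromal counts lie near those shares. In stromal against basal libraries 1 was higher and 0 lower, where 22.6% of all genes were called, and the counts at an unadjusted limma p under 0.05 were 1 higher and 5 lower. Phc2, a subunit of Polycomb repressive complex 1, was among the higher genes in all 3 comparisons with luminal Sca-1- libraries, with mean levels of 26.5 FPKM in luminal Sca-1-, 66.6 FPKM in luminal Sca-1+, 96.6 FPKM in basal and 50.9 FPKM in stromal libraries. Cbx8, another subunit of such complexes, was lower in basal (1.66 FPKM) and stromal (0.628 FPKM) than in luminal Sca-1- libraries (5.77 FPKM).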
